A study of Mus musculus with 12 samples.

Results

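The genes described here are 7 fibroblast growth factor (FGF) ligands, Fgf3, Fgf4, Fgf5, Fgf8, Fgf15, Fgf17 and Fgf18, and 3 FGF receptors, Fgfr1, Fgfr2 and Fgfr3. They were chosen by name, with earlier results of these data known, as 10 of the 26382 genes with a count in any library. Their levels are sums over all RefSeq transcripts of each symbol. All 10 passed the filter on low counts, which left 16966 genes to test. The samples were gastruloids, aggregates of mouse embryonic stem (ES) cells that form the germ layers and elongate along an axis. They were grown from 200 cells of the ES cell line E14TG2a kept in 2iLIF and were harvested on day 4. From day 3 to day 4 they were in 1X glucose (21.25 mM), in 3X glucose (63.75 mM), in no glucose, called 0X here, or in 5 mM 2-DG added to 1X glucose. 2-DG (2-deoxy-D-glucose) is a glucose analog that enters cells but is not broken down by glycolysis. Each treatment was sequenced as polyA RNA in 3 libraries, 1 from each of ES cell passages 13, 15 and 16, so each passage gave 4 libraries and the treatments are matched by passage. All groups share the pulse of the Wnt agonist CHIR99021 that the study's protocol gives on day 2, and all come from 1 cell line. A library is a pool of gastruloids, and in bulk RNA fewer cells of a type and less RNA per cell cannot be told apart.

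FGF ligands are secreted proteins that bind receptor tyrosine kinases on nearby cells, with heparan sulfate as a cofactor. The receptors signal mainly through Ras and ERK kinases, which switch on ETS factors such as Etv4 and Etv5 and feedback inhibitors of the Sprouty and dual specificity phosphatase families. In the gastrulating mouse embryo Fgf4 and Fgf8 are made in the primitive streak, and Fgf8 also in the tail bud and presomitic mesoderm, where FGF signaling is needed for mesoderm to leave the streak and sets the position at which somites form. Fgf17 and Fgf18 belong to the same subfamily as Fgf8. Fgf15 is the mouse counterpart of human FGF19, and Fgf5 marks the epiblast after implantation. Fgfr1 is the main receptor of the epiblast and presomitic mesoderm.

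Fgf3, Fgf4 and Fgf15 lie next to each other on chromosome 7 (GRCm38.p6), at chr7:144838612-144843348, chr7:144861386-144865245 and chr7:144896532-144900953, all on the plus strand. Gaps of 18.0 kb and 31.3 kb separate them, and the cluster spans 62.3 kb. The other members are single genes on chromosomes 5 (Fgf5, Fgfr3), 8 (Fgfr1), 11 (Fgf18), 14 (Fgf17) and 19 (Fgf8), and Fgfr2 lies elsewhere on chromosome 7. The promoters of Fgf3 and Fgf4, neighbours whose levels moved together, and of Fgf18, whose level moved the other way between passages, are shown for comparison. They are the 250 bases before the RefSeq start site on build GRCm38.p6, on the gene's own strand, at chr7:144838362-144838611 (plus), chr7:144861136-144861385 (plus) and chr11:33147401-33147650 (minus).
Fgf3: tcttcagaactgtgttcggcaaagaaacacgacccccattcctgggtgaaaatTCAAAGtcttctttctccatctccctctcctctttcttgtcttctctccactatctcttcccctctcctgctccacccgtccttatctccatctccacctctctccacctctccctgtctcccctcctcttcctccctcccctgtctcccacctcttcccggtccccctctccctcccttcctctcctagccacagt
Fgf4: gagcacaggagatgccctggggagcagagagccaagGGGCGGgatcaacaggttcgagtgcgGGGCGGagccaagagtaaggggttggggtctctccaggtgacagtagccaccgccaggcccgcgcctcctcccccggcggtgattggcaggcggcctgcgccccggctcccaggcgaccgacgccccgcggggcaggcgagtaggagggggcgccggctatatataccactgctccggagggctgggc
Fgf18: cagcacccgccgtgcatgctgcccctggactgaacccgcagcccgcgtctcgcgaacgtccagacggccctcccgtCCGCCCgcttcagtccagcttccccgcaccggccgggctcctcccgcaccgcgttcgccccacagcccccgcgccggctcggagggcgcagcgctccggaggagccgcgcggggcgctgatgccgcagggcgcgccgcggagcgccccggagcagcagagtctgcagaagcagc
Capitals mark every match, on either strand, to 6 motifs: the TATA box TATAAA, the GC box GGGCGG, a TCF/LEF site CTTTGA, a T-box site AGGTGT, a Cdx site TTTATG and a Sox site ACAATG. The Fgf3 promoter held 1 TCF/LEF match, on the opposite strand at bases -197 to -192 from the start site, and had 55.2% GC. The Fgf4 promoter held 2 GC boxes and had 71.2% GC, and the Fgf18 promoter held 1 GC box on the opposite strand and had 77.2% GC. Of all 32851 promoters of this length, 13.8% held the TCF/LEF motif and 32.7% the GC box, and their median GC content was 52.4%. No motif was shared by the Fgf3 and Fgf4 windows, and no matches overlapped in the 3 sequences.

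The total per library was 31902471 to 45956080 counts. The cells are labelled embryonic stem cells, but the summed level of 6 naive pluripotency markers was 9.16 to 16.3 CPM (counts scaled to the library size with TMM factors) over the 12 libraries. That of 4 core pluripotency markers was 67.9 to 216 CPM, and that of 3 primed epiblast markers 157 to 182 CPM. The summed level of 6 primitive streak and tail bud markers was 228 to 1120 CPM, and that of 5 presomitic mesoderm markers 435 to 1020 CPM. The material is called gastruloids throughout, as the samples are titled. The summed level of 6 fibroblast markers, for feeder cells on which the ES cells were first grown, was 9.98 to 16.8 CPM, and 3 of the 6 (Col1a1, Postn and Twist2) stayed under 1 CPM in every library.

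Per length, Fgf8 and Fgfr1 were the most abundant members. In 1X glucose Fgf8 had 72.7 ± 25.1 CPM per kilobase of transcript and Fgfr1 70.7 ± 20.4 (mean ± SD, n = 3). Then came Fgf18 (26.4 ± 22.2 CPM per kilobase), Fgf15 (22.4 ± 6.18), Fgf17 (17.0 ± 10.1), Fgf4 (14.9 ± 6.29) and Fgf3 (11 ± 2.32). Among these 7 genes the ranges of the 3 libraries overlapped between each gene and the next, so the order of neighbours is not set beyond the spread. Fgfr2 (4.24 ± 3.26), Fgfr3 (0.597 ± 0.0739) and Fgf5 (0.273 ± 0.00502) followed, and none of these overlapped with its neighbour in the order. Lengths are the median of those transcripts of a gene that GENCODE M21 links to a RefSeq entry, 4 of 7 for Fgf8, and the order would shift with another choice of transcript.

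**Figure D1:**
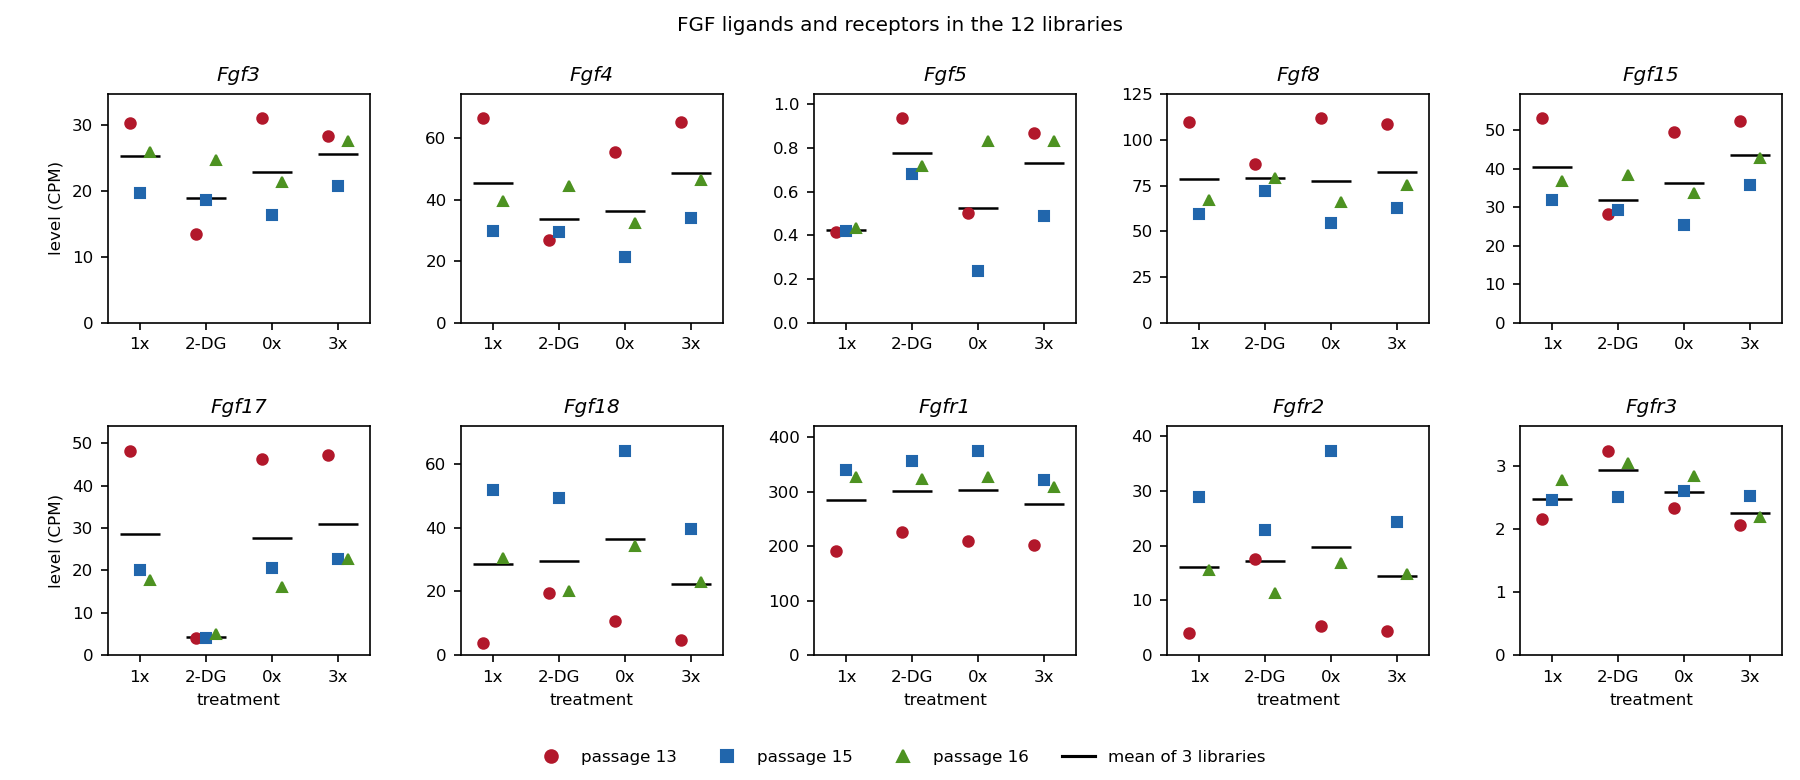
Level in CPM (vertical axis, from 0, a scale for each gene) of the 10 genes in the 12 libraries, by treatment, with a symbol for each ES cell passage and a line at the mean of 3 libraries. Fgf17 lies at 3.98 to 4.90 CPM in 2-DG and at 16 to 48.3 CPM elsewhere, and passage 13 lies apart in most panels.

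Fgf17 was the single member called between 2-DG and 1X glucose. It had 48.3, 20 and 17.8 CPM in 1X glucose (passages 13, 15 and 16) and 3.98, 4.00 and 4.90 CPM in 2-DG. The groups did not overlap, and all 3 libraries in 2-DG lay near the same low level although the 1X glucose libraries differed 2.72-fold. The log2 fold change was -2.74 (standard error, SE, 0.52, with a 95% interval of -3.88 to -1.60, adjusted p = 0.00572, edgeR's quasi-likelihood test with Benjamini-Hochberg adjustment), 6.68-fold lower. It was lower in 3 of 3 passages, and the adjusted p was 7.24e-06 to 0.0299 over 12 alternatives (edgeR or DESeq2). Over the same alternatives the log2 fold change of Fgf17 was -3.07 to -2.13, the smallest change being that without the 1X glucose library of passage 13. Thus 1 of 10 members was called, and it was lower, where 17.6% of all genes tested were called and 8.51% were lower. Another member, Fgf5, had an unadjusted p under 0.05, and DESeq2 called 1 member.

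Primitive streak and tail bud markers moved with Fgf17. Their summed level was 457 to 1090 CPM in 1X glucose and 228 to 328 CPM in 2-DG, and 4 of 6 fell (T, Mixl1, Evx1 and Wnt3a). Mixl1, a streak homeobox gene, stayed under 1 CPM in all 2-DG libraries. Neural markers moved the other way, with a summed level of 23.7 to 55.6 CPM in 1X glucose and 70.5 to 162 CPM in 2-DG, and 4 of 6 rose (Sox1, Pax6, Irx3 and Neurog2) while Nkx6-1 fell. The 5 presomitic mesoderm markers summed to 839 to 993 CPM in 1X glucose and 435 to 735 CPM in 2-DG, and Hes7 fell. The 4 endoderm markers summed to 39.4 to 64.4 CPM in 1X glucose and 84.2 to 114 CPM in 2-DG, and Cdh1 rose (log2 fold change 0.92). The others of this list were not called and differed in direction, with 0.58 for Epcam, -0.53 for Sox17 and -1.68 for Foxa2. Foxa2 stayed under 1 CPM in all 2-DG libraries. Among pluripotency and epiblast markers Tfcp2l1 (1.05) and Pou3f1 (1.35) rose. The part of these changes in the level of Fgf17 was not tested.

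The other ligands of the Fgf17 subfamily were not called. Fgf8 had 110, 59.7 and 67.0 CPM in 1X glucose (passages 13, 15 and 16) and 86.9, 71.9 and 79.0 CPM in 2-DG. Its groups overlapped, and the log2 fold change was 0.01 with a 95% interval of -0.65 to 0.66. With the passage as a block it was 0.06 with an SE of 0.11. Fgf18 had 3.71, 51.8 and 30.4 CPM in 1X glucose and 19.6, 49.3 and 20.2 CPM in 2-DG. Its log2 fold change of 0.06 had an interval of -1.97 to 2.09, and with the passage as a block it was 0.48 with an SE of 0.40.

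The 3 ligands of the chromosome 7 cluster had lower means in 2-DG but were not called. Fgf4 had 66.5, 29.7 and 39.7 CPM in 1X glucose and 27.0, 29.6 and 44.6 CPM in 2-DG, with a log2 fold change of -0.43 (95% interval -1.29 to 0.43). Only the passage 13 library was low against its partner. Fgf3 had 30.3, 19.7 and 25.8 CPM in 1X glucose against 13.4, 18.6 and 24.6 CPM in 2-DG (log2 fold change -0.42, interval -1.02 to 0.17), and Fgf15 had 53.2, 31.8 and 36.9 CPM against 28.2, 29.2 and 38.4 CPM (-0.35, interval -0.92 to 0.22). Ranges overlapped in all 3 genes. With the passage as a block the log2 fold changes were -0.32 for Fgf4 (SE 0.24), -0.39 for Fgf3 (SE 0.21) and -0.3 for Fgf15 (SE 0.16), and none was called.

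Fgf5 was scarce, with 8 to 34 counts per library. It had 0.417, 0.421 and 0.432 CPM in 1X glucose and 0.937, 0.681 and 0.719 CPM in 2-DG, and these groups did not overlap. The log2 fold change was 0.87 (SE 0.38, adjusted p = 0.143, edgeR), and with the passage as a block it was 0.88 and Fgf5 was called (SE 0.31, adjusted p = 0.0432, edgeR). The block thus raised the members called from 1 to 2 of 10, while it raised the share called among all genes to 41.3%. Fgf5 was also above 1X glucose in all 3 libraries of 3X glucose, at 0.870, 0.488 and 0.832 CPM, without being called there. In passage 15 its count was 16 in both 1X and 3X glucose, so the CPM differed there by library scaling alone. Non-overlapping ranges were found for 2 of 10 members (Fgf5 and Fgf17) and 35.4% of all genes between 2-DG and 1X glucose, for 1 of 10 (Fgf5) and 4.47% between 3X and 1X glucose, and for 0 of 10 and 5.63% between 0X and 1X glucose.

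The receptors showed no called change in 2-DG. Fgfr1 had 191, 340 and 327 CPM in 1X glucose and 226, 357 and 323 CPM in 2-DG, with a log2 fold change of 0.08 (95% interval -0.54 to 0.70, or a SE of 0.05 around 0.10 with the passage as a block). Fgfr2 had 4.11, 29.0 and 15.5 CPM in 1X glucose and 17.5, 22.9 and 11.4 CPM in 2-DG (0.10, interval -1.66 to 1.85, or 0.54 with an SE of 0.45 with the block). Fgfr3 had 2.17 to 2.79 CPM in 1X glucose and 2.51 to 3.25 CPM in 2-DG (0.25, interval -0.10 to 0.59). Over the 9 members other than Fgf17, log2 fold changes ran from -0.43 to 0.87.

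**Figure D2:**
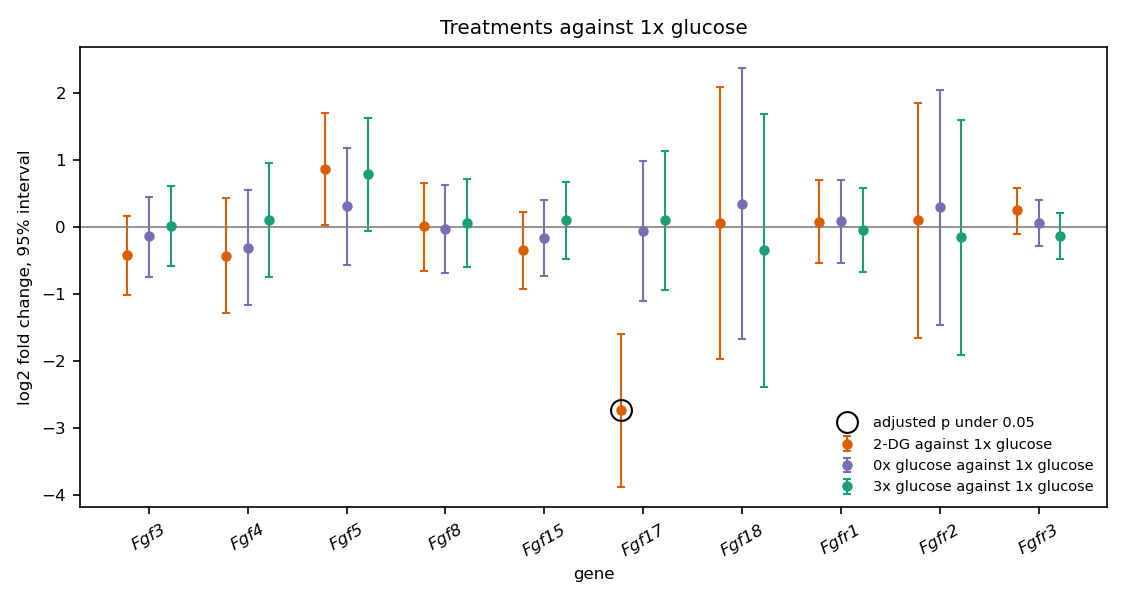
Log2 fold change of each gene (vertical axis) in 2-DG, 0X and 3X glucose against the shared 1X glucose libraries, with 95% intervals from edgeR. The circled point, Fgf17 in 2-DG at -2.74, is the single change called at an adjusted p under 0.05, and the intervals of Fgf18 and Fgfr2 are the widest.

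Removing or adding glucose gave no called change in any member. In 0X glucose the log2 fold changes against 1X glucose ran from -0.31 (Fgf4) to 0.35 (Fgf18), and 0 of 10 members were called by edgeR, where 0.0118% of all genes were. In 3X glucose they ran from -0.35 (Fgf18) to 0.79 (Fgf5), with 0 of 10 called and 0.0% of all genes. In either comparison 0 members had an unadjusted p under 0.05, and DESeq2 called 0 as well. Fgf17 had 46.3, 20.6 and 16 CPM in 0X glucose and 47.3, 22.6 and 22.7 CPM in 3X glucose, near its 1X glucose levels in each passage. Its 95% interval in 0X glucose was -1.10 to 0.99, and with the passage as a block its log2 fold change was -0.05 with an SE of 0.23. In 0X glucose the intervals of single members, without the block, reached from -0.28 to 0.41 at their narrowest (Fgfr3) and from -1.68 to 2.38 at their widest (Fgf18). With the passage as a block the SEs there were smaller, from 0.05 (Fgfr1) to 0.43 (Fgfr2).

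2-DG and the absence of glucose were compared directly, without the shared 1X glucose libraries. Fgf17 was lower in 2-DG than in 0X glucose, with a log2 fold change of -2.68 (SE 0.52, adjusted p = 0.00553, edgeR) and 3 of 3 passages lower. It was called in all 12 alternatives, and 1 of 10 members was called where 18.9% of all genes were, 9.04% being lower. The other 9 members had adjusted p values of 0.34 or more.

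For Fgf4, Fgf8, Fgf15, Fgf18, Fgfr1 and Fgfr2 the ES cell passage took a larger share of the variation than the treatment. In a description by sums of squares on log2(CPM + 1), passage took 95.3% for Fgfr1, 84.3% for Fgf8, 79.2% for Fgf18 and 73.4% for Fgfr2, against a median of 32.0% over all genes. For Fgf17, treatment took 80.5% and passage 13%, where the median treatment share over all genes was 38.0%. Treatment also took more than passage for Fgf5 (45.5% and 27.1%) and Fgfr3 (49.2% and 11.6%). For Fgf3 the shares were nearly equal, at 26.9% for treatment and 26.1% for passage, with 47.0% left to neither. A passage here is 1 culture with 4 libraries, so these values compare cultures of 1 line and not passage numbers as such.

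Between passages 13 and 15, 7 of 10 members differed by edgeR, with treatment in the model, where 41.8% of all genes did. The libraries of a passage are taken as 1 culture, so p-values between passages, here and below, measure spread between libraries and not cultures. Fgf4, Fgf8, Fgf15 and Fgf17 were higher in passage 13, and Fgf18, Fgfr1 and Fgfr2 were lower, that is 4 higher and 3 lower where 20.9% of all genes were higher and 20.8% lower. Fgf8 had 110, 112 and 109 CPM in 1X, 0X and 3X glucose of passage 13 against 59.7, 54.8 and 62.9 CPM in passage 15 (log2 fold change 0.75, SE 0.10, adjusted p = 0.000200, edgeR). Fgfr1 had 191, 209 and 202 CPM against 340, 376 and 321 CPM (-0.75, SE 0.04, adjusted p = 1.62e-06, edgeR). In both genes the ranges did not overlap.

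Fgf18 and Fgfr2 had the widest passage differences. In 1X, 0X and 3X glucose of passage 13 Fgf18 had 3.71, 10.6 and 4.84 CPM, against 51.8, 64.2 and 39.7 CPM in passage 15 and 30.4, 34.2 and 22.9 CPM in passage 16. Fgfr2 had 4.11, 5.30 and 4.38 CPM in passage 13, against 29.0, 37.4 and 24.4 CPM in passage 15 and 15.5, 16.8 and 14.9 CPM in passage 16. Passage 16 lay between the other passages in both genes, without overlap. Over all 12 libraries, passage 13 against passage 15 gave a log2 fold change of -2.51 for Fgf18 (SE 0.36, adjusted p = 0.000378, edgeR) and -1.99 for Fgfr2 (SE 0.40, adjusted p = 0.00254, edgeR).

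Between passages 13 and 16, 4 of 10 members were called (Fgf8 and Fgf17 higher, Fgf18 and Fgfr1 lower in passage 13), where 40.2% of all genes were, 19.7% higher and 20.4% lower. Between passages 16 and 15, edgeR and DESeq2 called 0 of 10, 5 had an unadjusted p under 0.05, and 4.2% of all genes were called. Without the 3 libraries in 2-DG these counts became 8, 8 and 6 of 10 for passages 13 against 15, 13 against 16 and 16 against 15, where 40.8%, 42.0% and 7.99% of all genes were called. Leaving out the 2-DG library of passage 13 alone also gave 8 of 10 for passages 13 against 16. Among the glucose media, passage 13 was higher for Fgf3, Fgf4, Fgf8, Fgf15 and Fgf17 and lower for Fgf18, Fgfr1 and Fgfr2 than either other passage, without overlap of the 3 libraries. In all, 9 of 10 members did not overlap between passages 13 and 15 (Fgfr3 besides these), 8 of 10 between passages 13 and 16 and 4 of 10 between passages 16 and 15, where 47.7%, 48.5% and 26.0% of all genes did not.

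Somite markers moved with Fgf18 and Fgfr2. Their summed level in the 3 glucose media was 56.2 to 75.9 CPM in passage 13, 363 to 525 CPM in passage 15 and 208 to 251 CPM in passage 16, and all 5 were lower in passage 13 than in each other passage. Primitive streak and tail bud markers moved with the ligands that were higher in passage 13, at 1050 to 1120 CPM against 400 to 554 and 430 to 637 CPM, with 6 of 6 called against passage 15 and 3 of 6 against passage 16. So did neural markers, at 50 to 59.0 CPM in passage 13 against 27.5 to 31.6 and 22.8 to 26.0 CPM. Of these, 4 of 6 were called against each other passage. Presomitic mesoderm markers did not move with these ligands, at 836 to 923 CPM in passage 13 against 860 to 910 and 993 to 1020 CPM. Of 5, 0 were called higher in passage 13. Dll3 was lower than in passage 15, and Tbx6, Msgn1 and Dll3 were lower than in passage 16. Core pluripotency markers summed to 140 to 169 CPM against 67.9 to 80.3 and 68.8 to 97.4 CPM. All 4 were called higher against passage 15, but against passage 16 only Sox2 was (log2 fold change 1.41). There Pou5f1 (0.02), Nanog (0.26) and Utf1 (0.12) were not called. Of 6 naive markers, 3 were called higher and 2 lower against passage 15, and 1 higher and 2 lower against passage 16. The endoderm genes Sox17 and Foxa2 were lower in passage 13, with log2 fold changes of -2.06 and -1.68 against passage 15 and -2.92 and -2.62 against passage 16. Of the same list, Cdh1 (0.46) and Epcam (0.75) were higher in passage 13 than in passage 15 and were not called against passage 16. The part of all these markers in the members' levels was not tested.

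**Figure D3:**
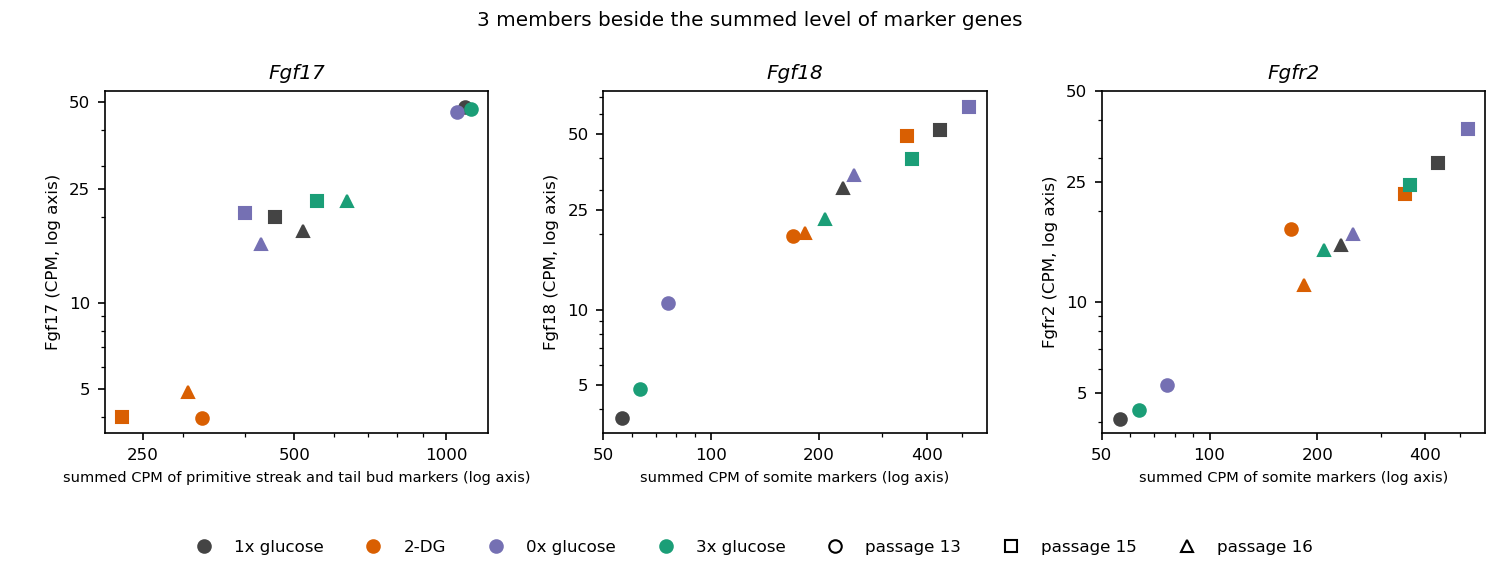
Level of Fgf17 against the summed level of 6 primitive streak and tail bud markers, and of Fgf18 and Fgfr2 against that of 5 somite markers, in CPM on log axes, with 1 point for each of the 12 libraries (colour for treatment, symbol for passage). The 3 glucose media of passage 13 lie lowest for Fgf18 and Fgfr2 at 56.2 to 75.9 CPM of somite markers, and its 2-DG library lies higher at 169 CPM.

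The ratio of 2-DG to 1X glucose was not the same in the 3 passages. In passage 13, Fgf18 and Fgfr2 were higher in 2-DG, with log2 ratios of 2.40 and 2.09, whereas in passages 15 and 16 these were -0.07 and -0.59 for Fgf18 and -0.34 and -0.44 for Fgfr2. Fgf4 had a log2 ratio of -1.30 in passage 13, 0.00 in passage 15 and 0.17 in passage 16. Fgf3 had -1.18, -0.08 and -0.07, and Fgf15 had -0.91, -0.12 and 0.06. Fgf17 was lower in every passage, at -3.60, -2.32 and -1.86.

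This difference was put into a model after it had been seen, as a term for the 2-DG library of passage 13 beside treatment and passage, in which the 3 glucose media fix the level of each passage. The term rests on 1 library, which is assumed to vary like the others, and its calls describe that library and are no independent evidence. It was called for 7 of 10 members, where 2.84% of all genes were called, 1.34% higher and 1.5% lower. It was lower for Fgf4 (log2 difference -1.35, SE 0.12, adjusted p = 0.000375, edgeR), Fgf3 (-1.15), Fgf8 (-0.58), Fgf15 (-0.85) and Fgf17 (-1.42). It was higher for Fgfr2 (2.36, SE 0.16, adjusted p = 5.57e-05, edgeR) and Fgf18 (1.98). The same term for passage 15 or for passage 16 was called in 0 of 10 members by edgeR, with 0 and 2 members at an unadjusted p under 0.05 and 0.0177% and 0.0354% of all genes called. Without the 2-DG library of passage 16 the first count became 6, and without that of passage 15 the second became 7, each leaving passage 13 as the 1 passage compared with. The call of Fgf18 was lost without the 2-DG library of passage 16 (adjusted p = 0.0548, edgeR), and with the most abundant transcript of each gene alone 1 of 7 calls, Fgf4, was kept. Markers again moved along, since 3 of 5 somite markers differed upward (Meox1, Tcf15 and Pax3) while 5 of 6 primitive streak and tail bud markers and 4 of 5 presomitic mesoderm markers (Tbx6, Msgn1, Hes7 and Rspo3) differed downward in the same fit. Pax6 differed upward and Cdh1 downward.

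In 2-DG the passages were closer to each other for most members. The highest passage exceeded the lowest 14-fold for Fgf18 in 1X glucose and 2.51-fold in 2-DG, 7.06-fold and 2.00-fold for Fgfr2, and 2.72-fold and 1.23-fold for Fgf17. The ratio was smaller in 2-DG than in 1X glucose for 7 of 10 members, the others being Fgf3, Fgf5 and Fgfr3. It was smaller than in 0X glucose for 9 and than in 3X glucose for 8 of 10 members. These ratios are a description of single libraries and were not tested.

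**Figure D4:**
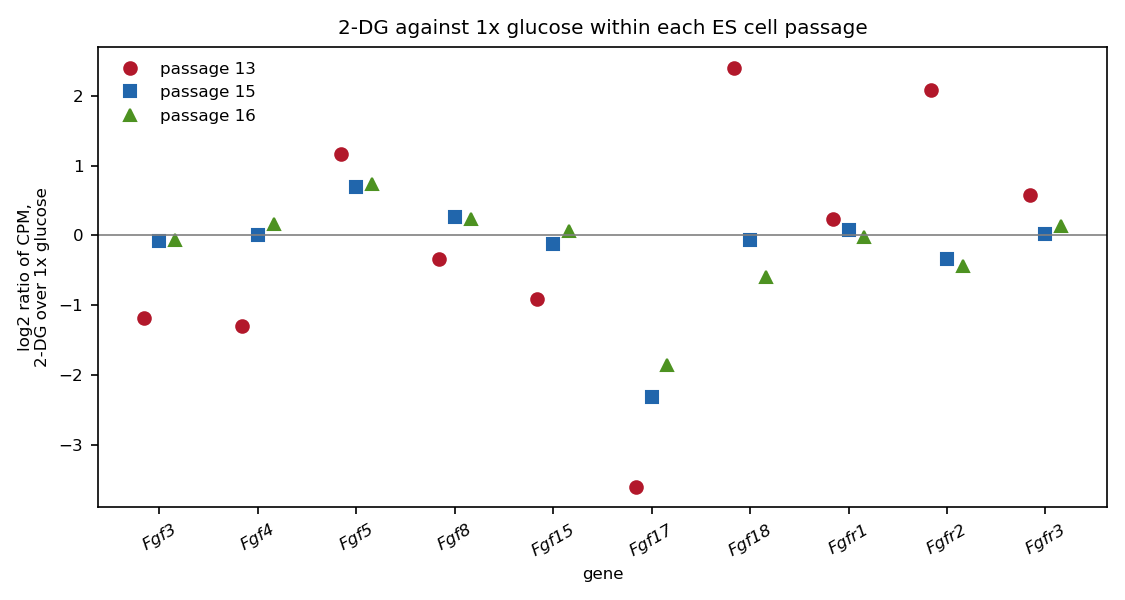
Log2 ratio of CPM in 2-DG over 1X glucose within each ES cell passage (vertical axis), with 1 point per gene and passage, each from 1 library of either group. Passage 13 lies below the other passages for Fgf3, Fgf4, Fgf8, Fgf15 and Fgf17 and above them for Fgf18 and Fgfr2.

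The neighbours of the chromosome 7 cluster were compared with it. Among 6 tested neighbours (Cttn, Ppfia1, Fadd, Ano1, Ccnd1 and Tpcn2), 0 were called by edgeR between 2-DG and 1X glucose, where 17.6% of all genes were. There was 1 at an unadjusted p under 0.05, and 1 was called by DESeq2. With the passage as a block 3 were called (Cttn, Ano1 and Ccnd1), where 41.3% of all genes were. LTO1, the gene next to Fgf15, was not in the list and was looked up later, and its log2 fold change was -0.07 (adjusted p = 0.71, edgeR). Between passages 13 and 15, Ano1 (log2 fold change 0.64) and Ccnd1 (0.43) were higher in passage 13, as Fgf4 and Fgf15 were. In the test of the passage 13 effect, the log2 differences of the 6 neighbours were between -0.24 (Ccnd1) and 0.32 (Ano1). The 3 ligands had -1.15, -1.35 and -0.85. That term rests on 1 library in 2-DG and was chosen after the ligands' values were seen. Ccnd1, which encodes cyclin D1, had 165 to 275 CPM. Over the 12 libraries, r with Fgf4 on log2(CPM + 1) was -0.493 for LTO1 and -0.267 to 0.548 for the 6 listed neighbours, against 0.905 for Fgf3 and 0.988 for Fgf15. Fgf15 overlaps Gm26793, a gene on the opposite strand with 152 to 400 counts per library, and it was not stated whether the counting used strand, so that reads of either gene may be counted for the other.

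Likeness was measured by Pearson's correlation of log2(CPM + 1) over the 12 libraries, among 13693 genes with a mean of at least 1 CPM, as a description. Fgf4 and Fgf15 were each other's most similar gene (r = 0.988), and both were followed by Amph (0.973 and 0.984), then by Unc5b for Fgf4 (0.961) and Grsf1 for Fgf15 (0.968). Fgf3 was most like Chst7 (0.960), Sp5 (0.951) and Lrp8 (0.949), and its r with Fgf4 was 0.905. Fgf17 was most like Hoxa9 (0.997), a posterior Hox gene, which ran from 1.43 to 28.3 CPM, then Gm53 (0.994) and Nfam1 (0.992).

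Fgf18 was most like Pcdh8 (0.993), a protocadherin of the presomitic mesoderm, Camsap2 (0.987) and the somite gene Meox1 (0.982). Fgfr2 was most like Meox1 (0.984), Tcf15 (0.983) and Pkdcc (0.975), and its r with Fgf18 was 0.966. Fgfr1 was most like Foxc1 (0.993), a paraxial mesoderm factor, Capn2 (0.992) and Dab2ip (0.990). Fgf8 ran against these genes, with r of -0.938 with Fgf18, -0.936 with Fgfr1 and -0.943 with Fgfr2, and was most like Apba2 (0.975), Atf7ip2 (0.971) and Tom1l1 (0.970). Fgfr3 was less like any gene, with Gm4532 (0.891), Atl3 (0.888) and Washc5 (0.886) first, as was the scarce Fgf5, with Mto1 (0.894), Lrfn3 (0.866) and Cfap100 (0.863). The libraries share passages and treatments.

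Fgfr2 was listed as 3 transcripts. NM_201601.2 was given 0 to 4 counts in the libraries in 1X and 0X glucose, 0, 26 and 20 counts in 3X glucose and 118, 37 and 7 counts in 2-DG (passages 13, 15 and 16). The highest count was thus in the 2-DG library of passage 13, where it made 19.7% of the gene. NM_010207.2 took 13.1% to 98.4% of the counts of Fgfr2, and the share of NM_001347638.1 was 0.0% to 86.9%. Neither share was alike in the libraries of 1 treatment. No test was made of these splits, since they are estimates that vary between replicates.

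Other members also had several transcripts. Fgf17 was listed as 2, and the share of NM_001360108.1 was 35.4% to 70.1%. It was 41.2%, 70.1% and 57.1% in 2-DG (passages 13, 15 and 16) and 45.4%, 41.1% and 47.4% in 1X glucose, and the difference was not tested. Both transcripts fell short of their 1X glucose counts in 2-DG, NM_008004.5 with 44 to 80 against 432 to 1202 counts and NM_001360108.1 with 56 to 105 against 313 to 999 counts. The noncoding transcript NR_102395.1 of Fgf18 had 0 counts in 7 libraries and 40.3% to 41.7% of the gene in 3 others, all in passages 15 and 16. In passage 15 it had 754 counts in 2-DG and 0 in 1X glucose, while the other transcript, NM_008005.2, had 1054 and 1968 counts. The levels and ratios of Fgf18 given above include both transcripts. Fgfr1 was split nearly evenly between NM_010206.3 (45.1% to 56.6%) and NM_001079908.2 (43.4% to 54.9%) in every library. Fgf8 was spread over 7 transcripts, with at most 50.4% in any one. Fgf3, Fgf4 and Fgf15 were listed as 1 transcript each.

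**Figure D5:**
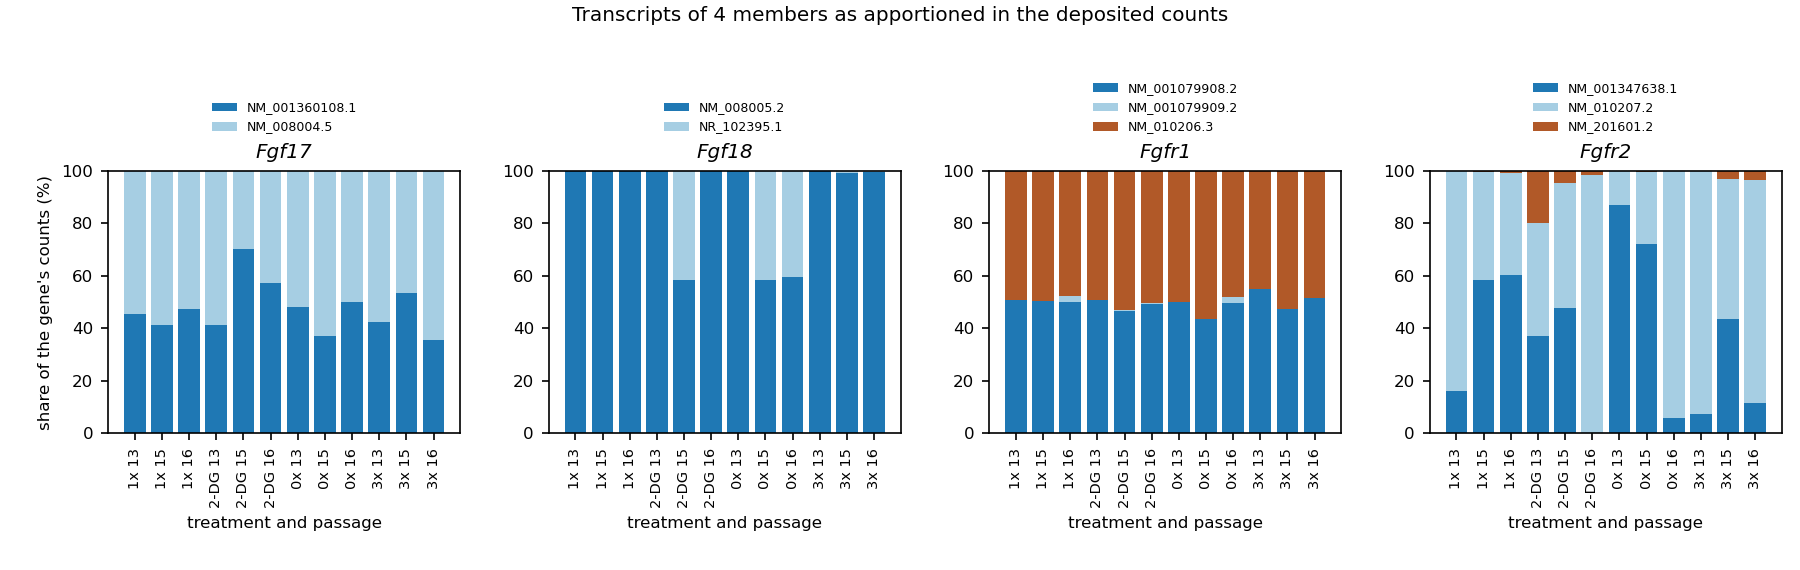
Share of each gene's counts (%) given to each RefSeq transcript of Fgf17, Fgf18, Fgfr1 and Fgfr2 in the 12 libraries, labelled by treatment and passage. Fgfr1 keeps nearly the same split in all libraries, while the shares of Fgfr2 run from 0.0% to 98.4%.

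The rest of the FGF family was examined as lists, which were chosen with earlier results of these data known. Of 15 other ligands, 9 were tested, and the most abundant were Fgf9 (16.5 to 31.2 CPM) and Fgf13 (14.2 to 22.9 CPM), the second an intracellular member of the family. In 2-DG against 1X glucose 1 was lower and 1 higher, where 17.6% of all genes were called and 8.51% were lower. The median log2 fold change was 0.19 beside 0.00 for all genes. Fgf1 had 32 to 55 counts per library in 1X glucose and 0 to 2 in 2-DG, at least 11.5-fold lower against a floor of 3 counts per library (adjusted p = 0.00215, edgeR). Fgf7 rose from 0.171 ± 0.057 to 0.478 ± 0.0675 CPM (n = 3, adjusted p = 0.043, edgeR, and 0.025 to 0.133 over the alternatives), and its call was lost when any 1 of the 6 libraries of these groups was left out. Among 4 other receptors and co-receptors, 3 were tested and 0 were called by edgeR and by DESeq2, with 1 at an unadjusted p under 0.05. With the block 1 was called, where 41.3% of all genes were. Fgfrl1, a receptor without a kinase domain, was the most abundant at 36.0 to 52.5 CPM.

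Of 23 genes that carry the signal from receptor to ERK, 2 rose in 2-DG, 0 fell and 21 were not called. Of all genes tested, 17.6% were called and 8.51% were lower. The median log2 fold change of the list was 0.02. The 2 that rose were Rps6ka3, an ERK-activated kinase (0.42, SE 0.08, adjusted p = 0.00765, edgeR), and the Raf kinase Araf (0.27, SE 0.06, adjusted p = 0.0107, edgeR). Both lost the call with the most abundant transcript alone, at adjusted p values of 0.526 and 0.138 (edgeR). With the block 4 of the 23 were higher and 2 lower, where 41.3% of all genes were called.

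Among 16 feedback inhibitors and targets, 6 fell (Egr1, Spry4, Etv4, Il17rd, Dusp6 and Etv5), 1 rose (Flrt3) and 9 were not called, with a median log2 fold change of -0.15. Among all genes tested, 17.6% were called and 8.51% were lower. Since this list too was chosen with earlier results of these data known, its counts are a description and no independent evidence. Egr1, an immediate early gene, went from 5.13 ± 1.01 to 0.881 ± 0.196 CPM (n = 3, log2 fold change -2.54, adjusted p = 0.00322, edgeR), and the Sprouty gene Spry4 from 59.1 ± 9.51 to 18.0 ± 6.2 CPM (n = 3, -1.71, adjusted p = 0.000997, edgeR). The calls of Etv4 and Il17rd were lost with the most abundant transcript alone, at adjusted p values of 0.45 and 0.0975 (edgeR), and that of Il17rd also without the 2-DG library of passage 15. In 0X and 3X glucose 0 genes of these 4 lists were called by edgeR, 0 by DESeq2 and 0 at an unadjusted p under 0.05. In the test of the passage 13 effect, 4 of the 16 feedback inhibitors and targets were lower, where 1.5% of all genes were.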

How the data were processed

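PolyA RNA of 12 libraries was sequenced, 3 for each of 4 treatments. The authors deposited, per library, the estimated counts of 120312 RefSeq transcripts, made with Trim Galore, HISAT2, SAMtools, Picard and StringTie on build mm10, as the submitters' processing notes and the study's methods name them. Versions and the use of strand in counting are not given in the sources used here. All values are whole numbers. StringTie apportions reads between transcripts, so a gene total is steadier than its split. The authors' 3 tables of DESeq2 fold changes and adjusted p-values were not used.

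Transcripts were named with the RefSeq table of GRCm38.p6 (all 120312 matched) and added up per gene. Genes were kept by filterByExpr of edgeR 4.0.16 in R 4.3.3 and scaled by TMM. All 12 libraries entered glmQLFit and glmQLFTest, by treatment alone, and by treatment and passage for passage comparisons. P-values are two-sided and adjusted by Benjamini-Hochberg over 16966 genes, with a threshold of 0.05. An exact permutation test of 3 libraries against 3 cannot give a p below 0.1. Standard errors come from the F statistic, and 95% intervals are not adjusted. Depth was 31902471 to 45956080 counts, and floors of 3 counts cover counting error only. Passages pair the treatments by the labels, and deviations from group means correlated at 0.232 to 0.828 in the 18 pairs of 1 passage. Adding the passage as a block took the common dispersion from 0.0316 to 0.0063. At most 9.67% of values were identical between libraries. In the tests by treatment alone the 3 libraries of a group come from 3 passages, so those p-values include the spread between passages. No label says that libraries of 1 passage are separate cultures. With the passage in the model, p-values thus measure the spread between these libraries, which may be technical.

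Comparisons of treatments with 1X glucose share its 3 libraries. The members and lists were chosen with earlier results of these data known. From each list, genes called in 2-DG were named up to the 4 of largest absolute log2 fold change, besides genes named where a count is explained, and for likeness the 3 genes of highest r. Genes outside this rule were named after their values were seen. Alternatives were no filter, median-of-ratios size factors, DESeq2 1.42.0, the most abundant transcript alone, a fit of the compared groups, the passage as a replicate block, no libraries in 2-DG, and leaving out each library. The fits were tested on simulated counts. Promoters came from RefSeq for 6 members, and 4 had none in the table. A sequence of Fgfr2 is not reported here.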

Additional observations from a re-analysis of the deposited data

Results flagged for a closer look

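A term for the effect of 2-DG in passage 13 against that in passages 15 and 16 was called for 7 members in edgeR. The log2 difference was -1.15 for Fgf3, -1.35 for Fgf4, -0.58 for Fgf8, -0.85 for Fgf15, -1.42 for Fgf17, 1.98 for Fgf18 and 2.36 for Fgfr2. The contrast was chosen after the values were seen, and each value rests on the 1 library in 2-DG of passage 13, which is assumed to vary like the others. With the most abundant transcript alone 1 of the 7 calls, Fgf4, was kept. Groups of 3 libraries are too small for the check on single outlying samples.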

How the results depend on the processing

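Fgf17 was lower in 2-DG than in 1X glucose and than in 0X glucose under all 12 alternatives of each comparison. With the replicate block, the paired fit by passage, the members called between 2-DG and 1X glucose went from 1 to 2, and no other count of members changed. With the most abundant transcript alone, the members called between passages 13 and 15 went from 7 to 2 and between passages 13 and 16 from 4 to 1. In that setting Fgf8 was reversed between passages 13 and 16, at a log2 fold change of -0.14 against 0.54. For the 2-DG effect in passage 13 this setting gave 1 in place of 7. Fgf3, Fgf4 and Fgf15 have 1 transcript and the same counts in it, while the filter, scaling, dispersion and adjustment were computed anew over all genes. The cause of their lost calls was not tested. Without the libraries in 2-DG, 8 members were called between passages 13 and 16 and 6 between passages 16 and 15.

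Leaving out 1 library gave 1 member for 2-DG against 1X or 0X glucose, 0 for 0X or 3X against 1X glucose, 7 to 8 for passages 13 against 15, 4 to 8 for 13 against 16 (8 without 2-DG replicate 13) and 0 for 16 against 15. For the 2-DG effect by passage it gave 6 to 7 (passage 13), 0 to 6 (passage 15, 6 without 2-DG replicate 16) and 0 to 7 (passage 16, 7 without 2-DG replicate 15). In the last of these the library left to compare with is that of passage 13. Fgf5 rests on 8 to 34 counts per library.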
